A study of Mus musculus with 4 samples.

Results

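The integrated stress response and its transcription factor ATF4 were examined through 10 genes, *Eif2ak3*, *Atf4*, *Atf3*, *Ddit3*, *Trib3*, *Chac1*, *Sesn2*, *Asns*, *Phgdh* and *Psat1*, out of 55450 genes in the count table. The genes were taken by name, and where a name occurred more than once (*Ddit3*) the entry with the largest total was used. The cells were MLO-Y4, a mouse osteocyte-like line recorded as wild type, so that all samples share the properties of a single immortalised line. In the loaded group (2 samples) the cells grew on collagen-coated plates with an elastic base and were stretched equiaxially for 12 h at 0.5 Hz and 20% strain. In the unloaded group (2 samples) the cells grew on ordinary 6-well plates and stood for 12 h in the incubator of the same device, so stretch and culture surface cannot be told apart in this comparison. The labels number the samples of a group without saying whether they came from separate cultures, so the p-values measure only the spread between these samples, which may be technical.

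After 12 h of loading, no gene among the 10 was called higher or lower. All 10 passed the filter on low counts. At an adjusted p under 0.01 in edgeR's quasi-likelihood test, 0 of 10 were called in either direction, against 0.0123% of 16269 tested genes called higher and 0.0861% called lower. None of the 10 had an unadjusted p under 0.05, against 14.3% of all tested genes. DESeq2 also called 0 of 10, against 1.36% of 12484 genes called higher and 1.55% called lower, and at these shares a count of 0 among 10 genes lies near the background. Their log2 differences, loaded minus unloaded, lay between -0.11 (*Sesn2*) and 0.32 (*Psat1*). For *Slc7a11*, a cystine transporter gene known as a target of both ATF4 and the antioxidant factor NRF2, the log2 difference was 0.79. Its adjusted p was 0.0361 in edgeR, above the threshold of 0.01, and 7.55e-09 in DESeq2.

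In the integrated stress response, 4 kinases that sense different stresses phosphorylate the translation initiation factor eIF2α. General protein synthesis then falls, while the *Atf4* mRNA, whose upstream open reading frames normally divert ribosomes, is translated more efficiently. ATF4 protein in turn induces genes for amino acid import and synthesis, tRNA charging and glutathione metabolism, together with feedback regulators and, under prolonged stress, the pro-apoptotic factor CHOP. Because ATF4 is controlled largely at translation, its targets report on its activity more directly than its own mRNA does. RNA-seq measures neither ATF4 protein nor eIF2α phosphorylation, and in bulk RNA fewer responding cells and less RNA per cell cannot be told apart.

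Total counts per library ranged from 28941994 to 32185693. Levels are given as CPM, read counts scaled to the library size after TMM normalization, and 3 counts, the floor used for detection, correspond to 0.093 to 0.103 CPM (counting error only). Of 11 osteocyte and osteoblast lineage markers, *Pdpn*, *Gja1*, *Phex*, *Col1a1* and *Runx2* were present, while the other 6, *Dmp1*, *Mepe*, *Sost*, *Fgf23*, *Bglap* and *Alpl*, stayed under 1 CPM in every library. *Phex*, a gene of mineralising osteocytes, was at 43.7 to 55.8 CPM, and *Dmp1* had 12 to 14 counts in each library. Summed over the 11 markers, the level was 1730 and 1770 CPM in the unloaded and 1836 and 1799 CPM in the loaded libraries. *Pdpn*, an early osteocyte marker, was at 143 and 151 CPM in the unloaded and 215 and 228 CPM in the loaded libraries (edgeR adjusted p = 0.0334), and its part in the results was not tested. Among 4 macrophage markers, *Ptprc* and *Adgre1* were at or near 0 and *Cd68* was at 2.82 to 5.58 CPM, whereas *Csf1r* was at 1558 to 1584 CPM in all libraries. Endothelial (3 genes) and adipocyte (3 genes) markers summed to at most 3.10 and 9.29 CPM.

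ATF4 binds, with partners of the C/EBP family, to C/EBP-ATF response elements. Their core was searched here as TGATGNAA on both strands (TTNCATCA when read on the other strand) in the RefSeq promoter windows of GRCm38.p6, which run from 250 bases before to 50 bases after each annotated start. The core was found in 3.97% of 32851 windows and in the windows of 4.51% of 27025 genes. All 10 genes had a window, and 4 of them held the core: *Atf3* (positions -110 to -103), *Trib3* (15 to 22 after the start), *Chac1* (-193 to -186) and *Asns* (-23 to -16). *Slc7a11* held it at 2 places, -66 to -59 and -47 to -40, on opposite strands with 11 bases between them. At least 2 matches occurred in 0.07% of all windows. The sequences below are shown because they place *Slc7a11* beside the ATF4 effectors with which it is compared. They run 5′ to 3′ on the strand of the gene over the 250 bases before the start, except for *Trib3*, where 30 bases around the match are given, and capitals mark the core. The window of *Atf3* belongs to a start inside the gene as GENCODE annotates it.
Slc7a11, chr3:50443614-50443863, minus strand: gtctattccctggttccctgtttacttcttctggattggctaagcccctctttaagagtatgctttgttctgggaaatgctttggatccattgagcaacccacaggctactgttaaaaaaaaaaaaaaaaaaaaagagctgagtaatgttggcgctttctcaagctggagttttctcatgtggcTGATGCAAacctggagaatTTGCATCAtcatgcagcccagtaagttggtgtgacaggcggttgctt
Chac1, chr2:119350992-119351241, plus strand: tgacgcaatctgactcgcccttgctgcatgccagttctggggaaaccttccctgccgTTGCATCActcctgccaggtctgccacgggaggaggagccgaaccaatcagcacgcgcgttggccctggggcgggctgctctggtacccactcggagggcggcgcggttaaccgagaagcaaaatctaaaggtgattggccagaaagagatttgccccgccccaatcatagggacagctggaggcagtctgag
Asns, chr6:7693210-7693459, minus strand: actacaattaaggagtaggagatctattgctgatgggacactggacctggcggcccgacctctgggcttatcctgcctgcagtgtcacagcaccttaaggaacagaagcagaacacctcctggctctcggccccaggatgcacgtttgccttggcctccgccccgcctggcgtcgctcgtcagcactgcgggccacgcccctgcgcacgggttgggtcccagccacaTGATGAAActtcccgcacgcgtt
Atf3, chr1:191183334-191183583, minus strand: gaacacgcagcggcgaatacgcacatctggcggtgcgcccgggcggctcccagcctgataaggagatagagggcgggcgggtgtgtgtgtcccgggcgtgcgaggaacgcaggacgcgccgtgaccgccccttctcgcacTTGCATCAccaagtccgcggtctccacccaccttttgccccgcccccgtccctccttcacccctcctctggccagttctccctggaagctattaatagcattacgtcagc
Trib3, chr2:152344028-152344057, minus strand: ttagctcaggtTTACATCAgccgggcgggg

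The core of the antioxidant response element bound by NRF2 was searched as TGACNNNGC (GCNNNGTCA on the other strand) and is more frequent, in 12.4% of windows and 14.0% of genes. It was found in *Asns* (-172 to -164), *Sesn2* (-36 to -28) and *Phgdh* (-53 to -45). Of the NRF2 targets with a window, 8 of 20 genes held it, *Gclm* (-134 to -126), *G6pdx*, *Me1*, *Pgd*, *Prdx1*, *Srxn1*, *Txnrd1* and *Ugdh*. Counted by genes with a window, it also occurred in 4 of 7 amino acid transporters, 7 of 20 endoplasmic reticulum genes and 3 of 16 ATF4 branch genes. The counts were 3 of 12 for amino acid synthesis and 2 of 7 for the tRNA synthetases. They were 2 of 9 for the eIF2 and feedback genes and 0 of 4 for the kinases. No match of either core overlapped the other in the 10 members. The windows of *Slc7a11* and *Nqo1* held no match of this core within these letters and bases. The promoter of *Hmox1* was not analysed here. A match describes letters in a window and not binding.

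**Figure D1:**
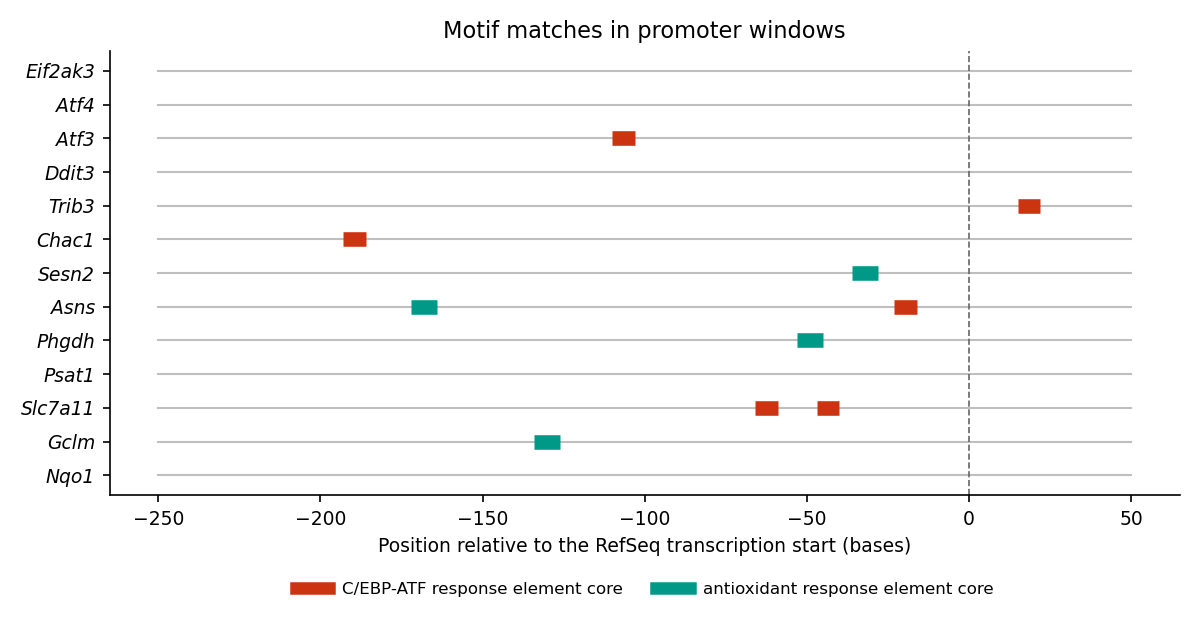
Matches of the C/EBP-ATF response element core (red) and the antioxidant response element core (green) in the promoter windows of the 10 genes, *Slc7a11*, *Gclm* and *Nqo1*; the x axis gives bases relative to the RefSeq start. *Slc7a11* has 2 red matches 11 bases apart, and *Atf3*, *Trib3*, *Chac1* and *Asns* have 1 each.

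*Eif2ak3* encodes PERK, the eIF2α kinase of the endoplasmic reticulum membrane, which responds to unfolded proteins. The gene (chromosome 6, 70844515 to 70905245, GENCODE M21 on GRCm38 here and below) had 1035 and 1008 counts in the unloaded and 1171 and 975 counts in the loaded libraries, or 35.6, 33.3, 36.3 and 32.7 CPM. The groups overlapped, with a log2 difference of 0.00 (standard error, SE, 0.11, 95% interval -0.26 to 0.26, edgeR adjusted p = 0.995). The other 3 kinases were listed beside it. *Eif2ak1*, the heme-regulated kinase, had a log2 difference of 0.05, and *Eif2ak4*, the kinase GCN2 activated by uncharged tRNA, one of -0.09. *Eif2ak2* encodes PKR, which is activated by double-stranded RNA and is itself an interferon-stimulated gene. It was at 115 and 102 CPM in the unloaded and 71.9 and 76.4 CPM in the loaded libraries, and the groups did not overlap. Its log2 difference of -0.55 (SE 0.10) had an edgeR adjusted p = 0.0812 and was called lower by DESeq2 (adjusted p = 0.00029).

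*Atf4* (chromosome 15, 80255184 to 80257541) was well measured, with 8013 and 8863 counts in the unloaded and 10073 and 9046 counts in the loaded libraries. Its normalised level was 276 and 292 CPM without and 312 and 304 CPM with loading. Both loaded values lay above both unloaded ones, by a log2 difference of 0.12 (SE 0.06, 95% interval -0.04 to 0.27, edgeR adjusted p = 0.467). The mean was 284 ± 11.7 CPM (SD, n = 2) in unloaded and 308 ± 6.13 CPM (SD, n = 2) in loaded cells. *Atf3* (chromosome 1, 191170296 to 191218039), a bZIP repressor induced early by many stresses, was the lowest of the 10 genes. It had 84 and 60 counts without and 94 and 68 counts with loading, or 2.89, 1.98, 2.91 and 2.28 CPM. The groups overlapped, and the 95% interval of its log2 difference of 0.09 ran from -0.71 to 0.90, or 0.612-fold to 1.86-fold.

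*Ddit3* encodes CHOP, a C/EBP relative linked to apoptosis in unresolved stress, and lies on chromosome 10 from 127290774 to 127296288. It was at 64.1 and 63.5 CPM in unloaded and 65.5 and 67.1 CPM in loaded libraries (1861, 1925, 2112 and 2001 counts). The loaded values were above the unloaded ones, by a log2 difference of 0.06 with a 95% interval of -0.16 to 0.27 (edgeR adjusted p = 0.83). *Trib3* (chromosome 2, 152337422 to 152344032), a pseudokinase induced by ATF4 and CHOP that limits their activity, had a negative difference. Its levels were 63.4 and 64.1 CPM without and 59.5 and 60.4 CPM with loading (1840, 1942, 1920 and 1800 counts), without overlap. The log2 difference of *Trib3* was -0.09 with a 95% interval of -0.30 to 0.13 (edgeR adjusted p = 0.708).

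*Chac1* (chromosome 2, 119351229 to 119354381), a target of the ATF4 and CHOP axis, encodes an enzyme that degrades glutathione, the product of the cystine that *Slc7a11* imports. It was at 44.2 and 48.9 CPM in the unloaded and 54.8 and 49.4 CPM in the loaded libraries (1284, 1481, 1769 and 1471 counts). The lower loaded library lay just above the higher unloaded one. The log2 difference was 0.16 (SE 0.11, 95% interval -0.10 to 0.43, edgeR adjusted p = 0.557). *Sesn2* (chromosome 4, 132492032 to 132510501) encodes sestrin 2, a stress-inducible protein that restrains the growth kinase mTORC1 and is also reported as a target of p53 and NRF2. Its levels were 101 and 116 CPM without and 99.98 and 100.3 CPM with loading (2920, 3519, 3226 and 2988 counts). The loaded values were below the unloaded ones, and only unloaded replicate 2 stood apart. Without it the log2 difference of -0.11 became -0.01.

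*Asns*, *Phgdh* and *Psat1* represent the biosynthetic arm. *Asns* (chromosome 6, 7675169 to 7693254), asparagine synthetase, is a classical target of amino acid deprivation signalled through GCN2 and ATF4. It was at 195 and 189 CPM in the unloaded and 170 and 201 CPM in the loaded libraries (5665, 5732, 5472 and 5993 counts). The loaded libraries lay on either side of the unloaded ones, with a log2 difference of -0.05 (95% interval -0.28 to 0.18, edgeR adjusted p = 0.86). *Phgdh* (chromosome 3, 98313170 to 98339990), which catalyses the first step of serine synthesis, was at 249 and 256 CPM without and 264 and 276 CPM with loading (7230, 7744, 8507 and 8236 counts). Its groups did not overlap, and its log2 difference was 0.10 (95% interval -0.05 to 0.25, edgeR adjusted p = 0.534). *Phgdh* is the least certain of the 10 in the assignment of reads, since 47.8% of its distinct stretches of 50 bases also occur in transcripts of other genes, mostly the processed pseudogene *Gm7901*. That pseudogene was listed with 51, 54, 50 and 71 counts.

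*Psat1* (chromosome 19, 15904678 to 15947337), the next enzyme of serine synthesis, had the widest gap between unloaded replicates of the 10 genes. Its counts were 11112 and 17616 in the unloaded and 19224 and 18002 in the loaded libraries, or 383, 581, 596 and 604 CPM. Unloaded replicate 1 was low, while unloaded replicate 2 lay close to both loaded libraries, and the means were 482 ± 140 CPM (SD, n = 2) without and 599.9 ± 5.81 CPM (SD, n = 2) with loading. The log2 difference of 0.32 (SE 0.18, edgeR adjusted p = 0.49) became 0.05 without unloaded replicate 1 and 0.65 without unloaded replicate 2, where the edgeR adjusted p was 0.0171, under 0.05 and above 0.01. Among 2697 genes with a mean of at least 100 CPM, 36 (1.33%) had unloaded replicates at least as far apart as *Psat1*, and unloaded replicate 1 was the lower library in 21 of these. *Phgdh* and *Psph*, the neighbouring enzymes of the pathway, had log2 gaps between the unloaded replicates of 0.04 and 0.25, against 0.60 for *Psat1*.

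**Figure D2:**
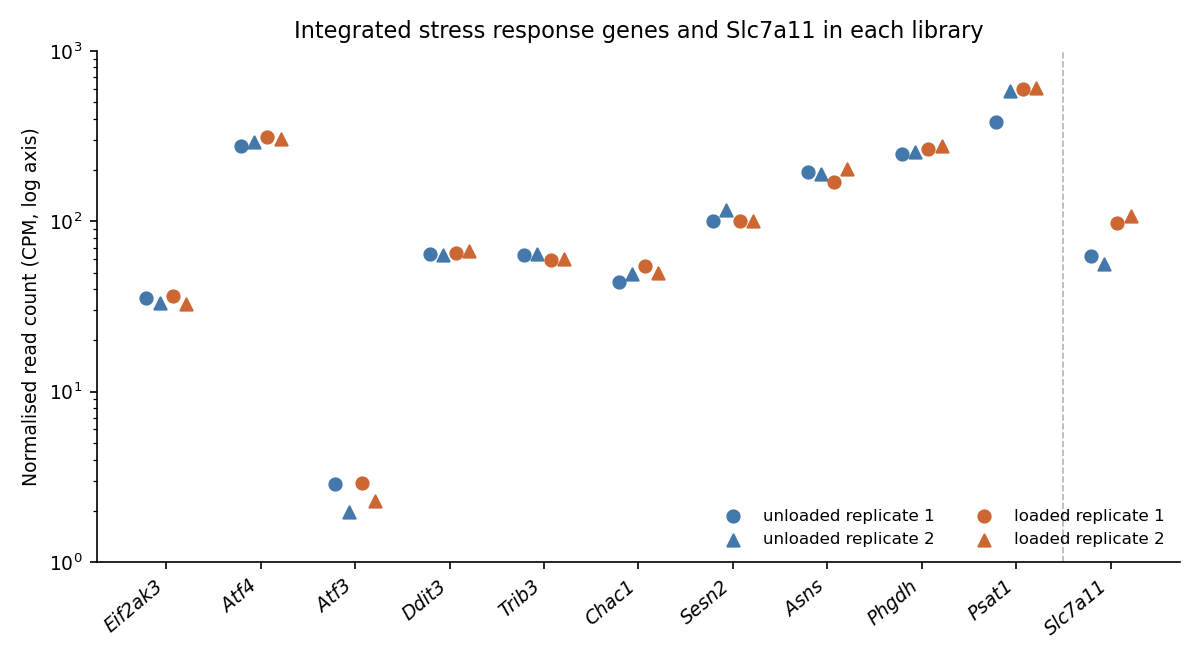
Normalised read count in CPM (log axis) of each gene in the 4 libraries; blue marks unloaded and orange loaded samples, circles replicate 1 and triangles replicate 2. The 4 points of most genes nearly coincide, *Psat1* has 1 low unloaded point at 383 CPM, and *Slc7a11*, right of the dashed line, is at 56.3 and 62.3 CPM without and 98.1 and 107 CPM with loading.

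Per kilobase of annotated exon, a scale on which levels of different genes may be compared, the order of the mean unloaded levels was *Atf4* (121 CPM per kb), *Psat1* (113), *Phgdh* (101), *Asns* (70.2), *Ddit3* (37.2), *Sesn2* (31.2), *Trib3* (29.99), *Chac1* (28.4), *Eif2ak3* (5.72) and *Atf3* (1.13). The unloaded replicates of *Psat1* spanned those of *Atf4* and *Phgdh*, and those of *Sesn2* spanned those of *Trib3* and overlapped those of *Chac1*, so the order within these groups was not resolved. The unloaded cells thus held far more *Atf4*, *Psat1* and *Phgdh* mRNA per length than *Atf3* mRNA.

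Groups that did not overlap were seen in 7 of the 10 genes. The loaded values were above in *Atf4*, *Ddit3*, *Chac1*, *Phgdh* and *Psat1*, against 22.1% of all tested genes, and below in *Trib3* and *Sesn2*, against 24.5% of all tested genes. These differences were small. For 8 of the 10 genes the 95% interval lay within a 1.5-fold change in either direction, the exceptions being *Atf3* and *Psat1* (0.918-fold to 1.69-fold). The share of all tested genes with such intervals was not counted, so this count cannot be read as a trait of these 10 genes. The median log2 difference of the 10 was 0.07, against -0.01 over all tested genes. An exact permutation test of a single value cannot go below p = 0.333 with 2 against 2 samples.

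*Slc7a11* (chromosome 3, 49892526 to 50443614), which encodes the cystine-glutamate exchanger xCT, had 1808 and 1705 counts in the unloaded and 3165 and 3188 counts in the loaded libraries. Its level was 62.3 and 56.3 CPM without and 98.1 and 107 CPM with loading. The means were 59.3 ± 4.24 CPM (SD, n = 2) and 103 ± 6.28 CPM (SD, n = 2), or 4.26 and 7.36 CPM per kb. The fold of the means was 1.73, with a 95% interval of the log2 difference of 0.55 to 1.03. *Slc7a11* did not pass an edgeR adjusted p of 0.01 and passed 0.05, where 0.338% of all tested genes were called higher and 0.565% lower. The call at 0.05 was lost in edgeR with no filter on low counts (adjusted p = 0.0694), with the replicate block (0.0822), and without loaded replicate 1 (0.077), loaded replicate 2 (0.116) or unloaded replicate 2 (0.058), while the log2 difference stayed between 0.72 and 0.87. DESeq2 called *Slc7a11* higher. The upper ends of the 95% intervals of 8 of the 10 stress response genes lay below the lower end of that of *Slc7a11*, the exceptions again being *Atf3* and *Psat1*. This compares intervals and is not a test of the difference. The same share over all tested genes was not counted. The upper quartile of their log2 differences, which are point values and not interval ends, was 0.16, below that lower end of 0.55. Without the matching share, the count cannot be read as a trait of these 10 genes.

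**Figure D3:**
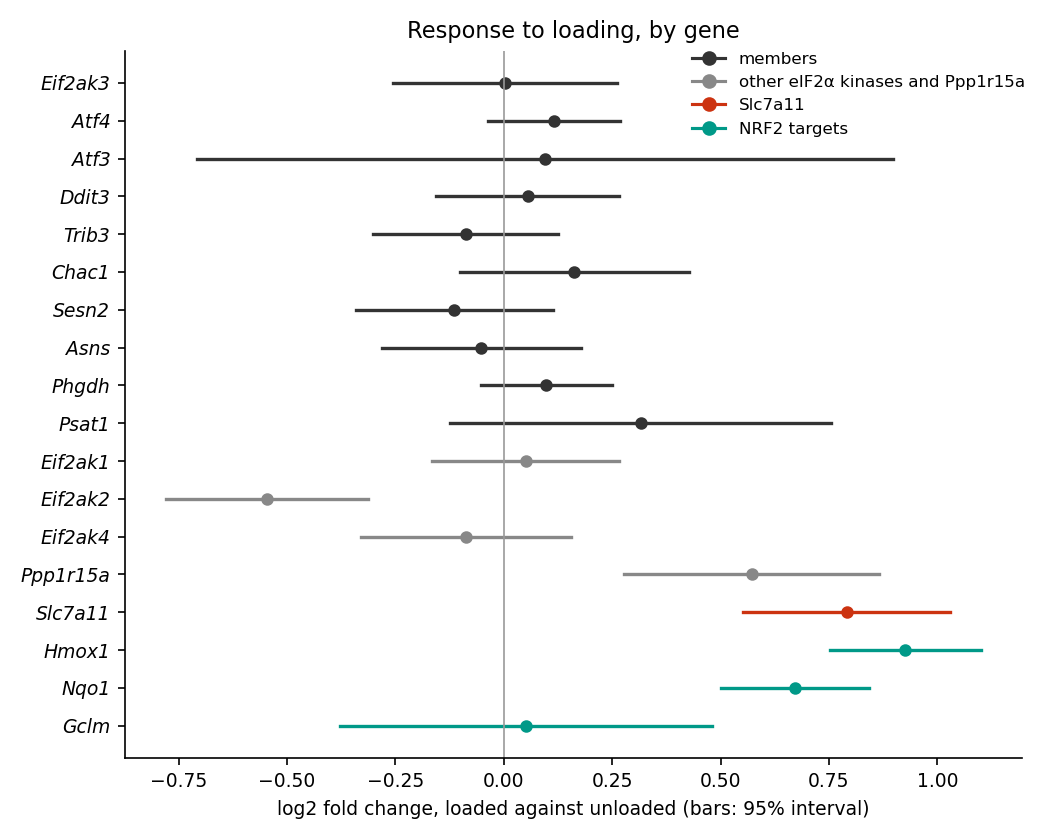
Log2 fold changes, loaded against unloaded, with 95% intervals from edgeR for the 10 genes (black), the other eIF2α kinases and *Ppp1r15a* (grey), *Slc7a11* (red) and 3 NRF2 targets (green). The black intervals all include 0. *Slc7a11* spans 0.55 to 1.03 and *Hmox1* 0.75 to 1.10. Among the grey genes *Ppp1r15a* spans 0.28 to 0.87 and *Eif2ak2* -0.78 to -0.31. *Gclm*, a green gene, overlapped between groups in its CPM values.

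Within each library, *Slc7a11* counts were also divided by the counts of each of the 10 genes, which removes the normalization, and scaled to the unloaded mean of that ratio. The loaded ratios lay above the unloaded ones for all 10 genes. Against *Chac1* they were 1.40 and 1.69, against *Asns* 1.88 and 1.73, against *Trib3* 1.77 and 1.90 and against *Ddit3* 1.61 and 1.72. The narrowest separation was against *Psat1*, with 1.25 in unloaded replicate 1 and 1.27 and 1.36 in the loaded libraries. The ratios share the *Slc7a11* counts and are not independent of each other. Since *Slc7a11* itself was higher and the 10 genes differed little, higher loaded ratios follow from these values and are not a further result. The share of all tested genes with such ratios was not computed.

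**Figure D4:**
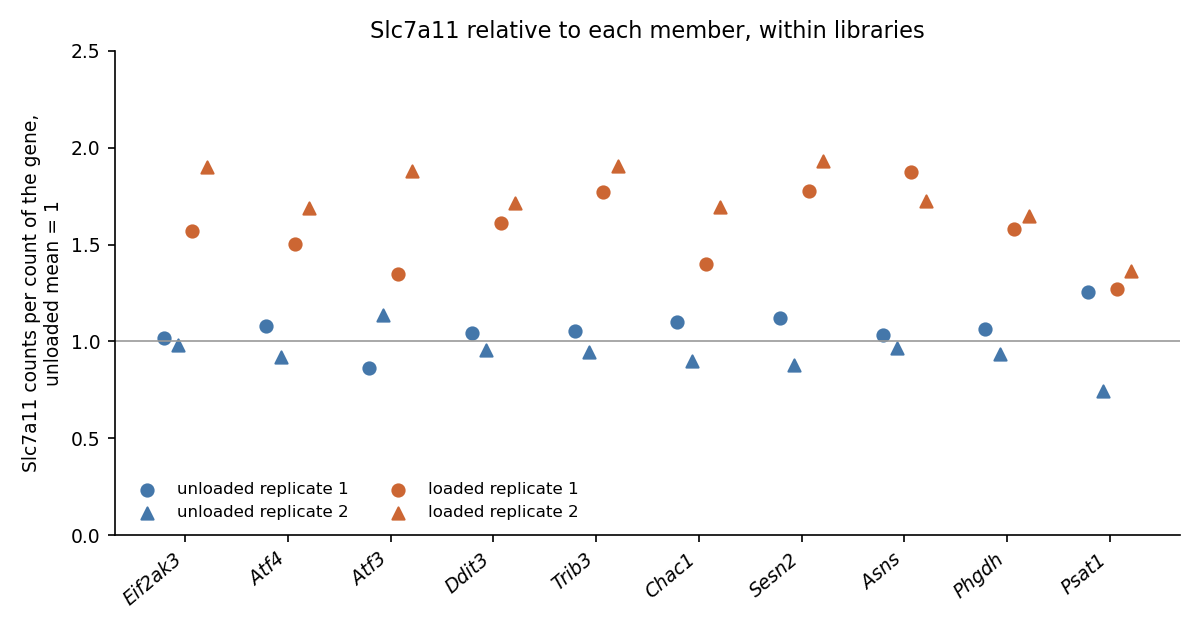
Ratio of *Slc7a11* counts to the counts of each gene in the same library, divided by the mean ratio of the unloaded libraries (linear axis from 0); blue marks unloaded and orange loaded samples. Loaded points lie between 1.27 and 1.93, and for *Psat1* they nearly touch unloaded replicate 1.

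The wider pathway was described through lists, which include the members, and 5 of which follow the ATF4 branch downstream of the kinases. Over all tested genes 48.5% had positive log2 differences. Of 13 genes of eIF2, its exchange factor eIF2B, the eIF2α phosphatase and feedback, 0 were called by edgeR or DESeq2, and 10 had positive log2 differences (median 0.09). Loaded values lay above the unloaded ones in 8 of the 13 and below in 1, against 22.1% and 24.5% of all tested genes. The smallest p-value was that of *Ppp1r15a*, which encodes GADD34, the stress-induced subunit that directs the phosphatase to eIF2α. It was at 26.1 and 31.2 CPM in the unloaded and 43.7 and 41.5 CPM in the loaded libraries, a log2 difference of 0.57 (SE 0.12, edgeR adjusted p = 0.122, DESeq2 adjusted p = 0.012). *Impact*, which encodes an inhibitor of GCN2 activation, had the next smallest p-value among genes with a positive difference, at 0.37 (edgeR adjusted p = 0.19). *Dnajc3*, which encodes an inhibitor of PERK and PKR, had the largest negative value of this list, at -0.31 (edgeR adjusted p = 0.148).

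Of 18 bZIP factors and stress effectors of the ATF4 branch, 17 were tested, 8 with positive and 9 with negative log2 differences (median -0.01, and from -0.09 to 0.05 when 1 library was left out). Loaded values lay above the unloaded ones in 6 of the 17 and below in 6, against 22.1% and 24.5% of all tested genes. *Fgf21*, a hormone gene induced by ATF4, had 0 counts in 3 libraries and 9 counts in loaded replicate 2 and was not tested. No gene of this list was called higher by edgeR or DESeq2, and DESeq2 called 2 lower, *Nupr1* and *Ero1l*. *Nupr1*, a stress-induced chromatin-associated protein gene, was at 84.9 and 87.1 CPM in the unloaded and 58.0 and 62.7 CPM in the loaded libraries (log2 difference -0.51, edgeR adjusted p = 0.0835, DESeq2 adjusted p = 0.00125). *Ero1l*, which encodes an oxidase of the endoplasmic reticulum, was at 286 and 272 CPM in the unloaded and 215 and 210 CPM in the loaded libraries (log2 difference -0.39, edgeR adjusted p = 0.0641, DESeq2 adjusted p = 0.000511). The smallest p-values among positive members were those of *Atf5* (0.32, edgeR adjusted p = 0.425) and *Gdf15* (0.22, edgeR adjusted p = 0.447).

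Amino acid synthesis and tRNA charging follow in the pathway. Of 14 synthesis genes, 13 were tested, 6 with positive and 7 with negative values (median -0.02, and 0.02 with DESeq2), and 0 were called by edgeR or DESeq2. Loaded values lay above the unloaded ones in 6 of the 13 and below in 4, against 22.1% and 24.5% of all tested genes. *Got1*, an aspartate aminotransferase, and *Cth*, which makes cysteine from cystathionine, had the smallest p-values, with log2 differences of 0.34 and 0.43 (edgeR adjusted p = 0.141 and 0.226). *Mthfd2*, a mitochondrial folate enzyme regarded as a sensitive ATF4 target, had -0.13 (edgeR adjusted p = 0.437). Of 14 cytosolic aminoacyl-tRNA synthetases 12 had positive values, between 0.04 and 0.25, and 0 were called (median 0.09). Loaded values were above the unloaded ones in 8 of the 14, against 22.1% of all tested genes. *Sars* was at 0.25 (edgeR adjusted p = 0.152), *Yars* at 0.22 (0.241), *Nars* at -0.04 (0.851), with edgeR adjusted p-values in brackets, and *Wars* was at -0.01.

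The transporters supply amino acids from the medium. Of 10 genes, 8 had positive values (median 0.18, and 0.18 without *Slc7a11*) and 7 had loaded values above the unloaded ones, against 22.1% of all tested genes. *Slc7a11* was the only gene of the list that passed an edgeR adjusted p of 0.05 or that DESeq2 called. *Slc3a2* encodes the 4F2 heavy chain, with which xCT and several other transporters form heterodimers. It was at 172 and 167 CPM in the unloaded and 220 and 197 CPM in the loaded libraries (log2 difference 0.30, SE 0.08, edgeR adjusted p = 0.169, DESeq2 adjusted p = 0.0343). *Slc7a5*, another partner of that chain, had a log2 difference of 0.24 (edgeR adjusted p = 0.195). The negative values were those of the low genes *Slc43a1* (-0.24) and *Slc7a3* (-0.13).

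Genes of the other branches of the unfolded protein response were set beside the PERK branch. Of 23 chaperones and genes of the ATF6 and XBP1 branches, 15 had negative and 8 positive log2 differences (median -0.17). Loaded values were below the unloaded ones in 13 of the 23 and above in 2, against 24.5% and 22.1% of all tested genes. None was called by edgeR, and DESeq2 called 2 lower. *Pdia4*, a disulfide isomerase, was at 234 and 237 CPM in the unloaded and 165 and 185 CPM in the loaded libraries (log2 difference -0.43, SE 0.08, edgeR adjusted p = 0.0846, DESeq2 adjusted p = 0.000501). *Hsp90b1*, which encodes the chaperone GRP94, was at 2458 and 2288 CPM in the unloaded and 1728 and 2023 CPM in the loaded libraries (edgeR adjusted p = 0.154, DESeq2 adjusted p = 0.00617). *Ern1*, the sensor kinase IRE1α, had -0.36 (edgeR adjusted p = 0.143). The largest negative value of the list was that of *Xbp1*, at -0.61 (edgeR adjusted p = 0.266, DESeq2 adjusted p = 0.0232). *Xbp1* was at 71.4 and 66.5 CPM in the unloaded and 55.1 and 35.4 CPM in the loaded libraries. On the positive side *Manf*, a secreted stress protein, had 0.26 (edgeR adjusted p = 0.152) and *Dnajb9*, a co-chaperone, 0.24 (edgeR adjusted p = 0.32).

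NRF2 target genes, with which the question of *Slc7a11* regulation is bound up, formed the last list. Of 25 genes, 22 had positive values (median 0.29, and 0.26 without *Slc7a11*). Loaded values lay above the unloaded ones in 21 of the 25 and below in 3, against 22.1% and 24.5% of all tested genes. At an edgeR adjusted p under 0.01, the threshold used for the other lists, 0 were called in either direction. At an edgeR adjusted p under 0.05, 5 were called higher and 0 lower, and DESeq2 called 10 higher and 0 lower at 0.01. Over all tested genes the shares were 0.338% higher and 0.565% lower in edgeR at 0.05, and 1.36% higher and 1.55% lower in DESeq2 at 0.01. The 10 were *Slc7a11*, *Hmox1*, *Nqo1*, *Txnrd1*, *Srxn1*, *Gsta1*, *Gsta2*, *Gsta4*, *Pgd* and *Blvrb*. *Hmox1*, which encodes the heme-degrading enzyme heme oxygenase 1, was at 105 and 106 CPM in the unloaded and 193 and 208 CPM in the loaded libraries (log2 difference 0.93, edgeR adjusted p = 0.0107). *Nqo1*, a quinone reductase gene, was at 95.2 and 94.1 CPM without and 148 and 153 CPM with loading (log2 difference 0.67, edgeR adjusted p = 0.0216). Both were separated without overlap. Earlier results on these libraries were known when the list was written, so its direction is not independent evidence. Not every target was higher without overlap. *Gclm*, which encodes the modifier subunit of the enzyme that makes the glutathione precursor, overlapped between groups, at 70.4 and 89.8 CPM without and 71.0 and 95.1 CPM with loading. *Ephx1*, at -0.22, and *Abcc1*, at -0.08, had the smallest p-values on the negative side (edgeR adjusted p = 0.277 and 0.641). *Slc7a11* was the only gene that both the transporter list and the NRF2 list held.

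**Figure D5:**
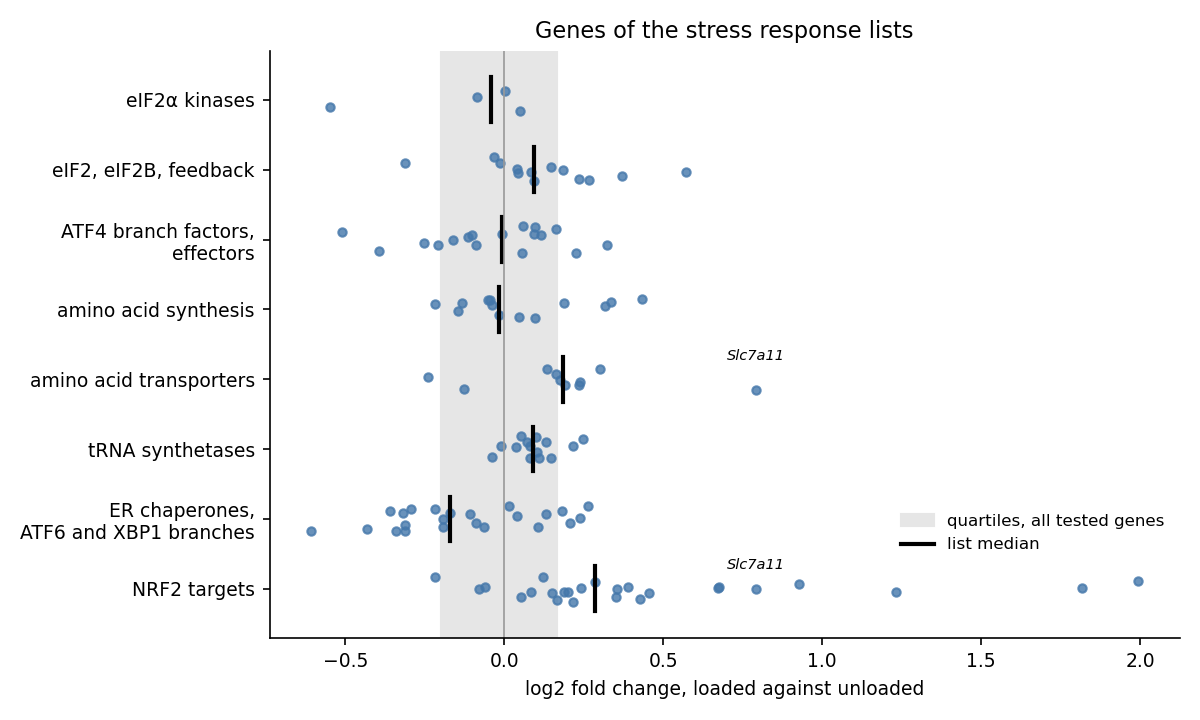
Log2 fold change, loaded against unloaded, of every tested gene of the 8 lists (points, vertically jittered), with the list median (black bar) and the quartiles of all tested genes (grey band, -0.20 to 0.16). The 2 list medians outside the band are those of the amino acid transporters (0.18) and the NRF2 targets (0.29), and *Slc7a11* is labelled in both lists.

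The core of the C/EBP-ATF response element was also counted by list. Counted by genes with a window, it occurred in 6 of 16 ATF4 branch factors and effectors and in 5 of 7 tRNA synthetases. It also occurred in 3 of 12 amino acid synthesis genes and 2 of 7 transporters. The share over all genes was 4.51%. The core was found in 0 of 4 kinases, 1 of 9 eIF2 and feedback genes and 1 of 20 endoplasmic reticulum genes. Of the NRF2 targets with a window 1 of 20 held it, which was *Slc7a11*. The genes that held it included *Nupr1* (-110 to -103), which DESeq2 called lower, and *Slc7a11*, which DESeq2 called higher.

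Read counting bears on single genes. Exons of *Ddit3* overlap those of *Mars* over 68 and of *Gm4189* over 13 of 1713 bases, both on the opposite strand. They also overlap the other entry named *Ddit3* on the same strand over 105 bases, and that entry had 4 counts in total. Exons of *Eif2ak3* overlap the opposite-strand gene *Gm43292* over 485 of 6026 bases. *Gm43292* had 11 to 21 counts per library. The other 8 genes share no exon with another annotated gene, and the strand setting of the counting is not given in the sources used here.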

How the data were processed

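RNA-seq of rRNA-depleted total RNA was analysed from 2 unloaded and 2 loaded MLO-Y4 samples, grouped by sample title. Per the labels and the study's methods, the authors mapped trimmed reads to mm10 with HISAT2 2.1.0, assembled transcripts with StringTie 1.3.5 and deposited raw counts per gene, converted from the StringTie output. All 55450 gene identifiers are those of GENCODE M21 (GRCm38). The totals (28941994 to 32185693 counts) leave *Atf3* as the only member under 100 counts per library. Genes were filtered with filterByExpr (count minimum 10, 16269 genes kept), TMM-normalized and tested with edgeR 4.0.16 (quasi-likelihood, R 4.3.3), with Benjamini-Hochberg adjustment and a threshold of 0.01. The study used DESeq2 1.32.0, and DESeq2 1.42.0 was run as an alternative, as were limma-voom (limma 3.58.1), RLE and upper-quartile factors, other filters, a replicate block, a threshold of 0.05 and each library left out. Standard errors are the log2 fold change divided by the square root of F, and 95% intervals use the t distribution of the fit. The procedure was also run on simulated data with changes larger than those of the members, which does not bear on differences of their size.

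The members and lists were chosen with earlier results of these data known. Named genes are the members, *Slc7a11*, the eIF2α kinases, *Hmox1*, *Nqo1*, *Gclm*, *Actb* (log2 difference 0.03, edgeR adjusted p = 0.914), list genes with an adjusted p under 0.01 in edgeR or DESeq2 and, per list and direction, the 2 with the smallest p. *Gpt2* (log2 difference -0.15, edgeR adjusted p = 0.449) and *Gcn1l1* (-0.03, edgeR adjusted p = 0.892) met the last rule and are given only here. *Fgf21*, *Slc7a5*, *Psph* and *Xbp1* were named after their values were seen. Lists are described by counts and medians without a test. Shared sequence was counted as identical 50-base stretches of GENCODE transcripts.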

Additional observations from a re-analysis of the deposited data

How the results depend on the processing

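Of 110 log2 differences of the 10 members under the alternatives, 105 kept their sign and 0 were called at 0.01. *Psat1* without unloaded replicate 2 (0.65, edgeR adjusted p = 0.0171) was the only one under 0.05. The 5 that changed sign came from leaving out a library. *Atf3* became -0.09 without loaded replicate 1 and -0.16 without unloaded replicate 2 (range -0.16 to 0.40), *Asns* became 0.069 without loaded replicate 1 (range -0.18 to 0.069), and *Eif2ak3* became -0.072 without loaded replicate 1 and -0.047 without unloaded replicate 2 (range -0.072 to 0.074). *Slc7a11* had a log2 difference of 0.80 with DESeq2, which called it. Its edgeR adjusted p of 0.0361 rose above 0.05 with no filter (0.0694), with the replicate block (0.0822) and without loaded replicate 1 (0.077), loaded replicate 2 (0.116) or unloaded replicate 2 (0.058). It was under 0.05 with the other 5 alternatives besides DESeq2.

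Over all tested genes, edgeR called 2 higher and 14 lower, DESeq2 called 170 and 193, and a threshold of 0.05 gave 55 and 92. With no filter on low counts 0 and 0 were called, and with at least 10 counts in every library 4 and 25. With 1 library left out the calls ranged from 0 to 19 higher and from 0 to 40 lower, and both were 0 without either loaded library. The lone sample of an arm is then assumed to vary like the others. The sources used here do not say what the replicate numbers mark, and the deviations of same-numbered samples correlated at -0.06 across genes. With the replicate block 0 genes were called higher and 0 lower. In the lists, DESeq2 called 1 kinase, 2 ATF4 branch genes and 2 endoplasmic reticulum genes lower, and 1 transporter and 10 NRF2 targets higher, where edgeR called 0 in each. For the NRF2 targets, 1 was called with at least 10 counts in every library, 1 with limma-voom and 0 to 2 with 1 library left out (2 without unloaded replicate 2). The cause of these differences was not tested.

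The median of the amino acid synthesis list was 0.022 with DESeq2 and 0.014 without a filter. With 1 library left out, list medians ranged from -0.039 to 0.078 (amino acid synthesis), 0.096 to 0.147 (eIF2 and feedback), -0.094 to 0.048 (ATF4 branch), 0.16 to 0.22 (transporters), 0.088 to 0.118 (tRNA synthetases), -0.19 to -0.11 (endoplasmic reticulum) and 0.25 to 0.33 (NRF2 targets). Depth limits *Atf3* most, with 60 to 94 counts per library.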
